A study of Mus musculus with 8 samples.

Results

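Type I interferon-stimulated genes are described here as 33 named genes, chosen by symbol as familiar targets of the pathway, and all 33 were among the 41250 genes of the count table. RNA was sequenced from mouse splenic B cells, purified by removal of CD43-positive cells and a density gradient. The cells were either taken fresh (resting) or kept in culture for 48 hours with lipopolysaccharide (LPS, a bacterial cell wall component) at 5 µg/mL and passed over a gradient again (stimulated). The mice were homozygous for the 3'RR deletion, the hs3b-hs4 deletion or the 3'PAL deletion, or were wild-type, and the strain label reads "mixed background 129/C58BL/6" for every animal. Each genotype and state gave 1 library, 8 in all, from B cells pooled from 4 animals. The 3'RR is a group of enhancers at the 3' end of the immunoglobulin heavy chain locus, hs3b and hs4 are enhancers within it, and the labels describe the 3'PAL deletion by its name alone. No library repeats a genotype within a state, so no p-value measures the spread between pools of the same genotype. Tests with genotype and state as terms take as their spread how unlike the change with stimulation is between genotypes. Tests of genotypes grouped by hs3b and hs4 take the spread between the genotypes of a group. Whether the same animals gave both pools of a genotype is not stated in the sources used here. No gene count measures the deleted sequences themselves, and the genotype labels were not checked here.

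Type I interferons (interferon beta and the interferon alphas) bind the receptor made of Ifnar1 and Ifnar2, and the kinases Jak1 and Tyk2 then pass the signal on to Stat2. With Irf9, Stat2 takes part in a complex that binds the interferon-stimulated response element (ISRE) in target promoters and raises a set of antiviral genes. In B cells LPS acts through the receptor Tlr4, whose signal can also reach the interferon regulatory factors. Some interferon targets are transcribed at a low level without infection, through tonic interferon signalling.

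The promoters of 4 members are shown because these members carry the contrasting patterns described below, and each holds the response element. Ifit1 and Isg15 rose on stimulation, Rsad2 fell, and Ifit3 was higher or lower depending on the genotype. The sequences are the 250 bases before the transcription start in RefSeq (GRCm38.p6), 5' to 3' on the strand of the gene, with matches to the motif in capitals. The motif searched was GAAA repeated after any 2 bases, on both strands, which reads as TTTC repeated after 2 bases on the other strand.
Isg15 (chr4:156200819-156201068, minus strand): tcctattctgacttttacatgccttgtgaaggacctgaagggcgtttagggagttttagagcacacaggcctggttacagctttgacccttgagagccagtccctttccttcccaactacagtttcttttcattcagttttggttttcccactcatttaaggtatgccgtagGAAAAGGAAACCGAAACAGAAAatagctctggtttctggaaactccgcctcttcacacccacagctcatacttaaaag
Ifit1 (chr19:34640639-34640888, plus strand): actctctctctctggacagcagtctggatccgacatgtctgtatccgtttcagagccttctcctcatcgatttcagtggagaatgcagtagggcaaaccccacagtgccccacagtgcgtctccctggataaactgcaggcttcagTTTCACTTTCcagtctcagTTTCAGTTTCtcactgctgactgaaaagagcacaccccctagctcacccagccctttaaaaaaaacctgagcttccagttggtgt
Rsad2 (chr12:26456453-26456702, minus strand): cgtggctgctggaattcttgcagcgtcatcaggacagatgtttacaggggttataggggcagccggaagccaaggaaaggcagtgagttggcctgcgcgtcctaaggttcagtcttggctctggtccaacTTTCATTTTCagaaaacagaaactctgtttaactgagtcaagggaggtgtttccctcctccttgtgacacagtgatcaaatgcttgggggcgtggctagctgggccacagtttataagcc
Ifit3 (chr19:34583279-34583528, plus strand): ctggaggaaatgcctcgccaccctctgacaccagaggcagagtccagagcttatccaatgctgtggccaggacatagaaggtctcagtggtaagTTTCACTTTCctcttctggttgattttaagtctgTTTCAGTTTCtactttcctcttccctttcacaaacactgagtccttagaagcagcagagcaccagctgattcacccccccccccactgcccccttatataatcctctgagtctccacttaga

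Isg15 held 3 overlapping matches, Ifit1 and Ifit3 held 2 each, and Rsad2 held 1. The match nearest to the start ended 56 bases before it in Isg15, 75 in Ifit1, 110 in Rsad2 and 112 in Ifit3. Of the 33 members 24 had a promoter entry in the table, and Mx1, Mx2, Oas2, Usp18, Dhx58, Rtp4, Zbp1, Parp9 and Parp14 were the others. The motif was present in 8 of the 24 (33.3%), namely Isg15, Oas3, Oas1a, Bst2, Stat2, Rsad2, Ifit3 and Ifit1, against 936 of 27025 genes with a window of the same length (3.46%). The gamma-activated site TTCNNNGAA, an element of interferon gamma targets, was in 5 of the 24 members (20.8%) and in 8.13% of all genes. A letter match describes the window and does not show that a factor binds there.

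Total counts ran from 17883683 to 28785192 per library, so that 3 counts correspond to between 0.104 and 0.168 CPM (counts relative to the library total, scaled between libraries by TMM, a trimmed mean of log ratios). The wild-type resting library was the shallowest and stood apart in one transcript, AY036118, which took 1.94% of its counts and at most 0.0842% of any other library. Markers of B cells were abundant in all libraries, with a summed level over 8 genes of 2472 to 2841 CPM in stimulated and 3736 to 4362 CPM in resting cells. The 13 markers of monocytes and macrophages were all detected in resting cells and summed to 8.13 to 16.2 CPM in stimulated cells and 351 to 1534 CPM in resting cells. Of these, C1qc was at 0 in every stimulated library, and Csf1r was at 0 to 0.52 CPM in stimulated and 50.9 to 254 CPM in resting cells. Erythroid markers (8 genes) likewise summed to 10.4 to 235 CPM in stimulated and 3253 to 21662 CPM in resting cells. In bulk RNA, fewer cells of a type and less RNA per cell cannot be told apart.

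All 33 members passed the filter on low counts, which left 13791 genes. Per kilobase of exon, the members with the highest mean level over the 8 libraries were Isg15 (23.7 CPM per kb), a ubiquitin-like protein that is attached to other proteins, Ifi35 (22.9 CPM per kb), an interferon-induced cytoplasmic protein, and Bst2 (20.4 CPM per kb), the membrane protein tetherin that holds budding viruses on the cell. Ifi35 varied little, at 46.1, 42.3, 51.0 and 29.3 CPM in stimulated 3'RR deletion, hs3b-hs4 deletion, 3'PAL deletion and wild-type cells, against 41.5, 36.4, 32.0 and 38.2 CPM in the resting libraries of the same genotypes. The lowest levels per kilobase were those of Oasl2 (0.52 CPM per kb), Ifi44 (1.01 CPM per kb) and Oas2 (1.48 CPM per kb). The median over the 33 genes was 21.1, 22.5, 36.0 and 11.8 CPM in stimulated 3'RR deletion, hs3b-hs4 deletion, 3'PAL deletion and wild-type cells. In resting cells of the same order of genotypes it was 18.4, 10.3, 10.0 and 19.8 CPM. By the median, the mean of log2(CPM + 1) and the sum, wild-type was the lowest of the stimulated libraries. Among the resting libraries wild-type was the highest by the median alone: the mean of log2(CPM + 1) was 4.62 in 3'RR deletion and 4.54 in wild-type cells, and the sum was 1384 and 1201 CPM.

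The comparison of stimulated with resting cells asks which members differ after culture with LPS across the 4 genotypes. No library was cultured without LPS, so LPS, the 48 hours of culture and the second gradient cannot be told apart. In this comparison 8 of the 33 members rose and 2 fell, in edgeR's quasi-likelihood test with genotype as a term and Benjamini-Hochberg adjustment over all 13791 genes. Of all genes tested 34.9% rose and 35.9% fell, so a smaller share of the members was called than of all genes. The 8 that rose were Ifit1, Oasl1, Ifih1, Isg15, Eif2ak2, Bst2, Zbp1 and Dhx58, and the 2 that fell were Rsad2 and Samhd1. The median log2 fold change was 0.03 over the members and -0.03 over all genes. That of the members changed sign with the libraries used, from -0.26 without the resting and -0.21 without the stimulated 3'PAL deletion library to 0.61 without the resting and 0.66 without the stimulated wild-type library, while that of all genes stayed between -0.04 and 0.02. At an unadjusted p under 0.05 there were 11 of the 33 members, the added one being Irf9, and 10088 of all 13791 genes. The levels of macrophage and erythroid markers moved with stimulation as given above, and their part in these changes was not tested.

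**Figure D1:**
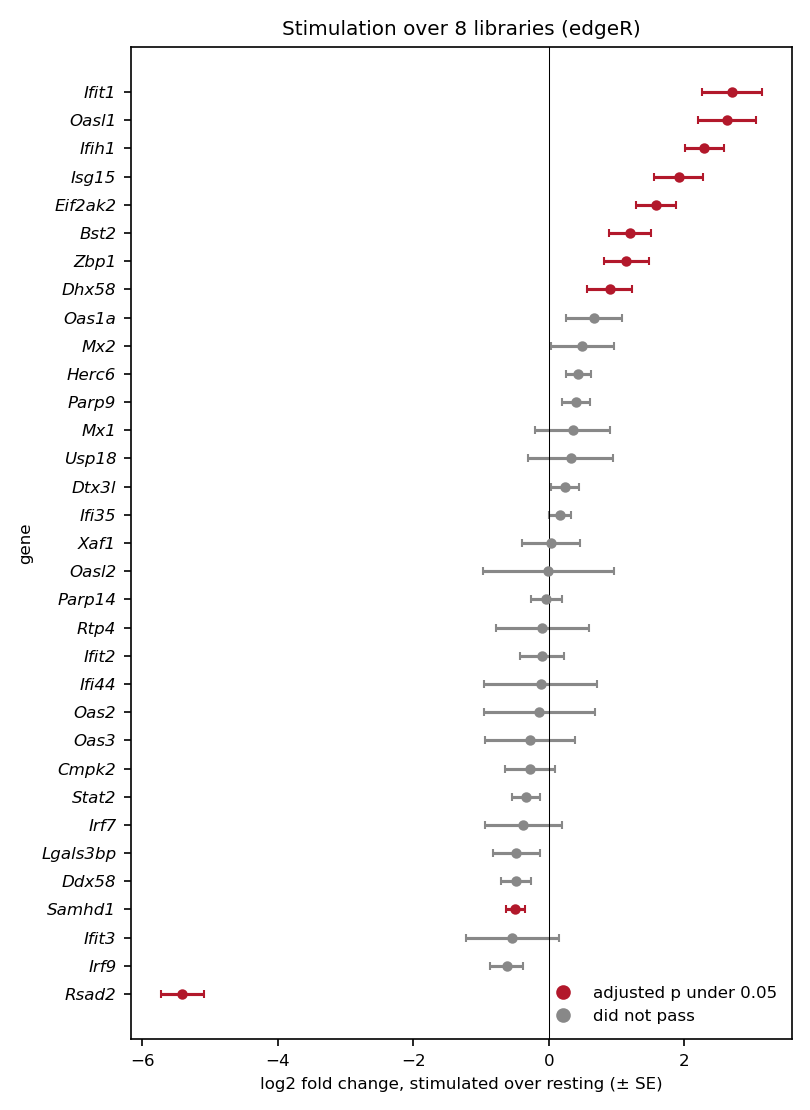
Log2 fold change of the 33 genes, stimulated over resting, with its standard error, over 4 stimulated and 4 resting libraries (edgeR, genotype as a term). Red points passed an adjusted p of 0.05: 8 lie to the right of 0, and Samhd1 and Rsad2 to the left, with Rsad2 far from all the others.

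Of the 4 sensors of viral nucleic acid, 3 rose. Ifih1 (MDA5), which detects long double-stranded RNA, had 56.1, 101.8, 89.1 and 82.1 CPM in stimulated 3'RR deletion, hs3b-hs4 deletion, 3'PAL deletion and wild-type cells, against 24.1, 16.0, 10.7 and 17.0 CPM in resting cells of the same genotypes. The 2 states did not overlap, and the log2 fold change was 2.30 ± 0.282 (SE, adjusted p = 0.00027, edgeR). Dhx58 (LGP2), a helicase that modulates the other sensors, had 31.8, 28.1, 46.9 and 17.0 CPM in stimulated cells and 19.0, 14.6, 10.5 and 19.8 CPM in resting cells, in the same order of genotypes. Zbp1, a sensor of Z-form nucleic acid that can trigger cell death, had 26.9, 20.2, 36.0 and 11.8 CPM in stimulated cells and 11.8, 7.37, 8.59 and 13.5 CPM in resting cells. For both genes the stimulated wild-type library lay below the resting one, unlike in the mutants. The changes were 0.90 ± 0.335 for Dhx58 (adjusted p = 0.044) and 1.14 ± 0.330 for Zbp1 (adjusted p = 0.016, edgeR). Dhx58 lost its call without either 3'RR deletion library, either hs3b-hs4 deletion library or either 3'PAL deletion library (adjusted p from 0.075 to 0.11), and Zbp1 without the resting hs3b-hs4 deletion or resting 3'PAL deletion library (0.062 and 0.056). Ddx58 (RIG-I), which detects short RNA with a triphosphate end, ranged from 41.2 to 87.2 CPM in stimulated and from 73.1 to 99.1 CPM in resting cells and did not pass the test.

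None of the 3 transcription factors of the pathway passed. Irf9 and Stat2, the partners in the complex that binds the response element, had log2 fold changes of -0.62 ± 0.246 (adjusted p = 0.054) and -0.33 ± 0.212 (adjusted p = 0.19, edgeR). Irf7, which drives transcription of the interferon alpha genes, had 22.2, 22.5, 61.7 and 6.51 CPM in stimulated 3'RR deletion, hs3b-hs4 deletion, 3'PAL deletion and wild-type cells and 40.3, 20.7, 21.97 and 34.8 CPM in resting cells. Among the stimulated libraries the 3'PAL deletion library was the highest and wild-type the lowest, and the 2 states overlapped.

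Among the IFIT genes, whose proteins bind foreign RNA and block its translation, 1 of 3 rose. Ifit1 had 17.9, 44.8, 31.4 and 29.7 CPM in stimulated 3'RR deletion, hs3b-hs4 deletion, 3'PAL deletion and wild-type cells, against 7.42, 2.496, 3.10 and 6.19 CPM in resting cells. The states did not overlap, and the log2 fold change was 2.71 ± 0.442 (adjusted p = 0.0011, edgeR). Ifit2 and Ifit3 did not pass, at -0.10 ± 0.319 and -0.54 ± 0.689. Ifit3 had 6.41, 10.0, 21.7 and 2.96 CPM in stimulated cells and 15.7, 9.05, 6.48 and 21.6 CPM in resting cells, so that the order of the genotypes in stimulated cells, 3'PAL deletion highest and wild-type lowest, was turned round in resting cells.

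In the oligoadenylate synthetase family, 1 of 5 members rose. Oas1a, Oas2 and Oas3 make the short oligoadenylates that activate the nuclease RNase L, and none of them passed, with log2 fold changes between -0.27 and 0.67. Oas2 had 8.88, 4.57, 9.73 and 1.02 CPM in stimulated 3'RR deletion, hs3b-hs4 deletion, 3'PAL deletion and wild-type cells and 9.71, 3.24, 2.23 and 13.5 CPM in resting cells. The wild-type libraries were therefore the lowest of the stimulated and the highest of the resting group. Oasl1, which lacks synthetase activity and in mice restrains translation of Irf7, had 27.8, 78.8, 85.4 and 94.2 CPM in stimulated cells, against 12.03, 5.42, 7.80 and 22.1 CPM in resting cells. The states did not overlap, and the log2 fold change was 2.63 ± 0.430 (adjusted p = 0.0011, edgeR). Oasl2 had 3.91, 2.09, 0.171 and 0.106 CPM in stimulated cells and 8.90, 0.117, 0.165 and 0.543 CPM in resting cells. It was near the level of 3 counts in 4 of the 8 libraries and was above 1 CPM in both 3'RR deletion libraries and in the stimulated hs3b-hs4 deletion library.

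Eif2ak2 (PKR), a kinase that stops translation on binding double-stranded RNA, rose. Its levels were 61.7, 54.9, 59.1 and 30.3 CPM in stimulated 3'RR deletion, hs3b-hs4 deletion, 3'PAL deletion and wild-type cells, against 34.0, 11.98, 10.8 and 16.4 CPM in resting cells. The stimulated level exceeded the resting level in each genotype, although wild-type stimulated cells lay below resting 3'RR deletion cells, and the log2 fold change was 1.59 ± 0.295 (adjusted p = 0.0021, edgeR). By the authors' kallisto estimated counts Eif2ak2 had 95.9, 83.3, 89.9 and 50.6 CPM in stimulated cells and 59.7, 35.1, 31.0 and 40.3 CPM in resting cells. The ratio between the states was smaller by kallisto in each genotype. The antiviral GTPases Mx1 and Mx2 did not pass, at 0.35 ± 0.548 and 0.50 ± 0.466. Mx2 had 7.44, 15.2, 30.1 and 6.97 CPM in stimulated cells and 7.07, 7.37, 7.80 and 15.8 CPM in resting cells. The 3 mutants lay close together at rest, with the wild-type library above them. For Mx1 the gene counts and the authors' kallisto estimated counts differed, so its values are uncertain: stimulated wild-type cells had 7.07 CPM by gene counts and 35.9 CPM by kallisto, and stimulated 3'PAL deletion cells 29.97 and 39.8 CPM.

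In the Isg15 system, 1 of 3 members rose. Isg15 had 21.1, 33.9, 38.6 and 18.0 CPM in stimulated 3'RR deletion, hs3b-hs4 deletion, 3'PAL deletion and wild-type cells, against 14.5, 4.41, 8.42 and 4.24 CPM in resting cells. The states did not overlap, and the log2 fold change was 1.92 ± 0.359 (adjusted p = 0.0022, edgeR). Herc6, the main ligase that attaches Isg15 in mice, and Usp18, which removes Isg15 and blocks the interferon receptor, did not pass, at 0.44 ± 0.189 and 0.32 ± 0.629.

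Among the enzymes that act on nucleotides, 2 of 3 fell. Rsad2 (viperin) converts CTP to a chain terminator of viral polymerases. It had 3.43, 2.32, 2.08 and 0.528 CPM in stimulated 3'RR deletion, hs3b-hs4 deletion, 3'PAL deletion and wild-type cells, against 163.4, 43.6, 159.4 and 23.8 CPM in resting cells. Every stimulated library lay below every resting one, and the log2 fold change was -5.41 ± 0.315 (adjusted p = 1.4e-05, edgeR). Samhd1, which breaks down deoxynucleotides, had 167.2, 140.2, 176.5 and 117.8 CPM in stimulated cells and 255.2, 174.7, 190.4 and 227.5 CPM in resting cells. Its stimulated level was lower in each genotype, the states overlapped slightly, and the log2 fold change was -0.50 ± 0.141 (adjusted p = 0.016, edgeR). It lost its call without either 3'RR deletion library or the stimulated wild-type library (adjusted p from 0.063 to 0.078). Cmpk2, a mitochondrial nucleotide kinase, did not pass, at -0.28 ± 0.372.

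None of the PARP group passed. Parp9 and Dtx3l form a complex of an ADP-ribosyltransferase-like protein and a ubiquitin ligase, Parp14 is a further ADP-ribosyltransferase, and their log2 fold changes were 0.40 ± 0.208, 0.24 ± 0.203 and -0.03 ± 0.235. Parp9 and Dtx3l share 458 exonic bases on opposite strands, and with the strand setting of the counting not known their reads may be mixed there. The same holds for shorter overlaps with opposite-strand genes in Ifi35 (290 exonic bases with Gm11626), Eif2ak2 (174 with Gm26637) and Dhx58 (141 with Dhx58os). Smaller still are those of Eif2ak2 with n-R5s29 (47), Irf7 with Phrf1 (45) and Oasl1 with Gm13822 (38). Irf9 shares 123 exonic bases with Rnf31 on the same strand. Among the remaining 6 members Bst2 rose, with 30.7, 20.9, 17.6 and 14.8 CPM in stimulated 3'RR deletion, hs3b-hs4 deletion, 3'PAL deletion and wild-type cells and 18.2, 5.42, 4.46 and 12.8 CPM in resting cells (log2 fold change 1.20 ± 0.307, adjusted p = 0.0098, edgeR). In each state the 3'RR deletion library was the highest, and the states overlapped through it. Ifi44, Ifi35, Rtp4, Xaf1 and Lgals3bp did not pass, with log2 fold changes from -0.48 to 0.17. Ifi44, an interferon-induced protein of the cytoplasm, had 0.368, 3.82, 20.2 and 2.11 CPM in stimulated cells and 0.985, 2.15, 4.91 and 14.9 CPM in resting cells. Both 3'RR deletion libraries were the lowest of their state.

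The stimulated and resting libraries did not overlap for Ifih1, Ifit1, Oasl1 and Isg15, which were higher in stimulated cells (31% of all genes), and for Rsad2, which was lower (32.5% of all genes). Single libraries shifted the split of the calls. Without the stimulated 3'PAL deletion library 7 members rose and 6 fell, and without the resting one 6 rose and 6 fell. In these fits 9700 of 14108 and 9686 of 14147 tested genes were called in either direction. Without the stimulated wild-type library 14 rose and 1 fell, and without the resting one 13 rose and 2 fell. Here 9045 of 14126 and 8992 of 14067 tested genes were called. Leaving out both 3'PAL deletion libraries gave 7 and 6, and leaving out both wild-type libraries gave 13 and 1. Leaving out both 3'RR deletion libraries gave 6 and 1. Of all genes, 9606 of 13930, 8937 of 13883 and 8792 of 13795 were called in these fits, in the same order. Ifih1, Ifit1, Oasl1, Isg15, Eif2ak2, Bst2 and Rsad2 kept their calls without any single library and without both libraries of any genotype.

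Some neighbouring members shared an outcome in the stimulation test and others did not. On chromosome 19 (GRCm38), Ifit2, Ifit3 and Ifit1 lie between 34550694 and 34650009, and Ifit1 alone of the 3 rose. On chromosome 5 Oasl2 and Oasl1 lie next to each other between 114896936 and 114937915, and Oasl1 rose while Oasl2 did not pass. On chromosome 12 Rsad2 (26442753 to 26456452, minus strand) and Cmpk2 (26469204 to 26479835, plus strand) lie head to head, and Rsad2 fell while Cmpk2 did not pass. On chromosome 16 Parp14, Dtx3l and Parp9 lie between 35832874 and 35972605, and none of the 3 passed. Oas2, Oas3 and Oas1a, between 120730333 and 120907521 on chromosome 5, and Mx1 and Mx2, between 97447035 and 97560900 on chromosome 16, likewise did not pass. A difference between neighbours was not itself tested.

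**Figure D2:**
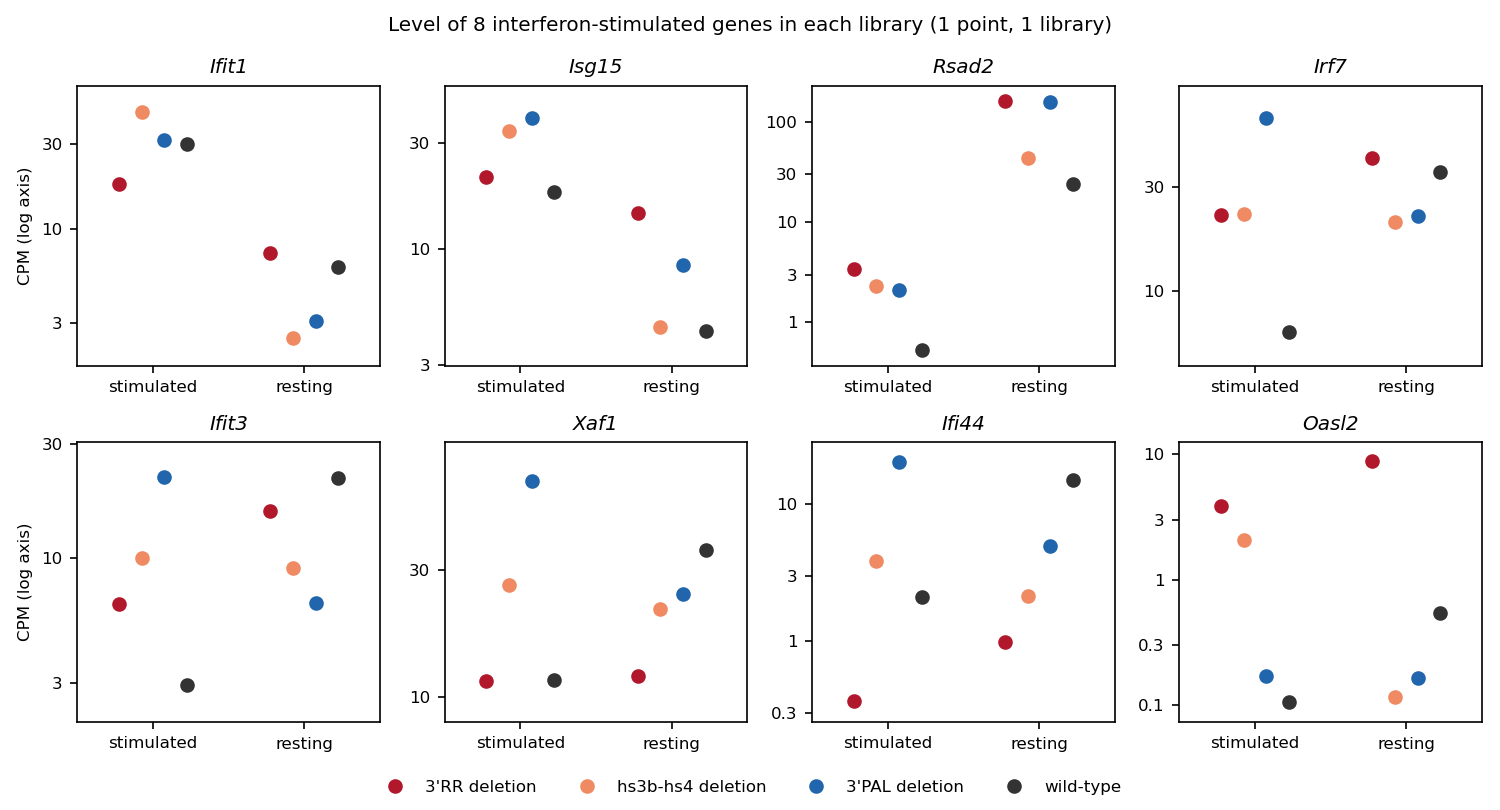
Level of 8 of the genes in each library, in CPM on a log axis, with stimulated libraries on the left and resting libraries on the right of each panel. Ifit1 and Isg15 are higher and Rsad2 is lower in every stimulated library. For Irf7, Ifit3, Xaf1 and Ifi44 the 3'PAL deletion library is the highest of the stimulated group, and Oasl2 is near 0 outside the 3'RR deletion and stimulated hs3b-hs4 deletion libraries.

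Within each genotype the stimulated library was set against the resting one, to see whether the change with stimulation had the same direction in each. With 1 library per state there is no test, and a gene was counted when its ratio on log2(CPM + 1) was at least 1 in size with at least 5 CPM in the higher library. In 3'RR deletion cells 4 members were higher and 5 lower after stimulation (11.8% and 10.9% of all genes). In hs3b-hs4 deletion cells 7 were higher and 1 was lower (12.3% and 11.2%). In 3'PAL deletion cells 20 were higher and 1, Rsad2, was lower (10.2% and 8.9%). In wild-type cells 4 were higher, namely Ifih1, Ifit1, Oasl1 and Isg15, and 16 were lower (14.4% and 12.5%). The median log2 ratio of the members was -0.23, 0.61, 1.45 and -0.94 in 3'RR deletion, hs3b-hs4 deletion, 3'PAL deletion and wild-type cells, while that of all genes lay between -0.04 and 0.

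By sign alone, 6 members were higher after stimulation in all 4 genotypes (Ifih1, Ifit1, Oasl1, Eif2ak2, Isg15 and Bst2), against 37.8% of all genes. Rsad2 and Samhd1 were lower in all 4, against 39.3% of all genes, although Samhd1 was higher in 3'PAL deletion cells with library size alone and by kallisto. The remaining 25 were all lower after stimulation in wild-type and higher in 3'PAL deletion cells, a pattern held by 7.74% of all genes. For Oasl2, among them, the sign in 3'PAL deletion cells rests on 5 counts in stimulated and 4 in resting cells. No member had the opposite pattern, held by 6.25% of all genes. Of the 25, 21 were also higher after stimulation in hs3b-hs4 deletion cells and 8 in 3'RR deletion cells. With a lower level in wild-type, these patterns were held by 6.19% and 6.41% of all genes. For 10 the log2 ratio was at least 1 in size each way, against 0.181% of all genes: Irf7, Ifit3, Oas2, Oas3, Mx1, Mx2, Usp18, Ifi44, Rtp4 and Xaf1. By kallisto Mx1 was higher after stimulation in wild-type too, with 35.9 CPM in stimulated and 31.2 CPM in resting cells, and the 25 become 24 without it; Mx1 and Mx2 both left the 10 by kallisto, which gave 8. The difference in direction rests on 2 libraries of each genotype and was not tested.

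**Figure D3:**
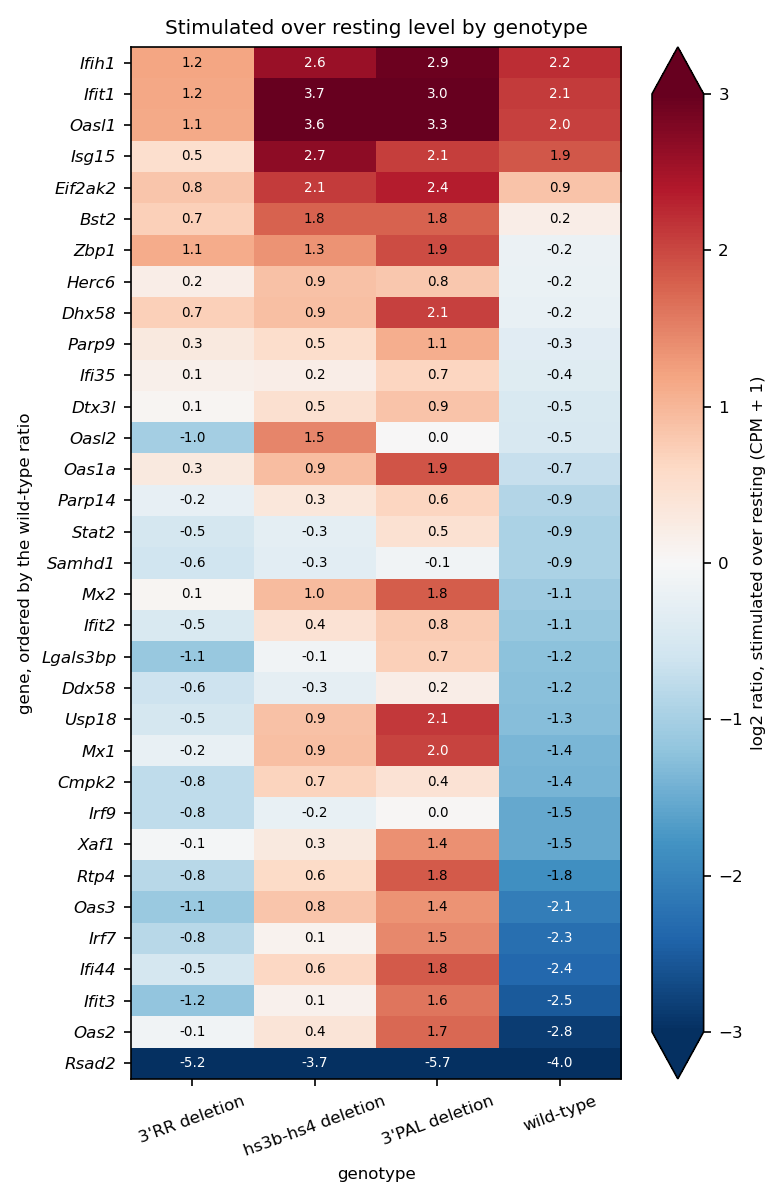
Log2 ratio of stimulated over resting CPM (each + 1) of the 33 genes in each genotype, ordered by the wild-type ratio, with red higher and blue lower after stimulation and colours saturated at 3. In the wild-type column 27 genes are blue. In the 3'PAL deletion column 31 genes are above 0, some of them close to it. Below 0 there are Rsad2, far from it, and Samhd1, close to it.

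Irf7 was 0.19 times as high in stimulated as in resting wild-type cells (95% interval 0.158 to 0.220, exact conditional binomial, counting error only) and 2.81 times as high in 3'PAL deletion cells (2.55 to 3.10). Oas2 gave the widest gap of the synthetases, at 0.076 times in wild-type (0.0497 to 0.112) and 4.36 times in 3'PAL deletion cells (3.25 to 5.95). Xaf1, a proapoptotic zinc finger protein, had 11.6, 26.2, 64.4 and 11.6 CPM in stimulated 3'RR deletion, hs3b-hs4 deletion, 3'PAL deletion and wild-type cells and 12.1, 21.4, 24.4 and 35.6 CPM in resting cells. Its stimulated over resting ratio was 0.96, 1.23, 2.63 and 0.33 in 3'RR deletion, hs3b-hs4 deletion, 3'PAL deletion and wild-type cells. For Irf7 and Oas2 the intervals of the 3'PAL deletion and wild-type ratios were far apart, which bounds counting error and not the variation between animals.

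The mutants were then set against wild-type within each state, which asks whether each deletion goes with another level of the members. All stimulated ratios share the 1 stimulated wild-type library, and all resting ratios share the 1 resting wild-type library. In stimulated cells 7 members were higher and 1 (Oasl1) was lower in 3'RR deletion cells (1.34% and 1.09% of all genes). Eif2ak2, among the 7, fell short of the size rule by kallisto, with 95.9 CPM in 3'RR deletion and 50.6 CPM in wild-type cells. In hs3b-hs4 deletion cells 7 were higher and 0 lower (0.529% and 0.645%), and in 3'PAL deletion cells 18 were higher and 0 lower (1.62% and 0.457%). The median log2 ratio of the members was 0.70, 0.65 and 1.06 in 3'RR deletion, hs3b-hs4 deletion and 3'PAL deletion cells, and that of all genes lay between -0.01 and 0. Irf7 and Usp18 were higher by this rule in all 3 mutants, as was Oas3. Irf7 was 3.41 times as high in 3'RR deletion as in wild-type cells (2.89 to 4.04), 3.45 times in hs3b-hs4 deletion cells (2.92 to 4.10) and 9.49 times in 3'PAL deletion cells (8.15 to 11.1).

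Wild-type was the lowest of the 4 stimulated libraries for 28 of the 33 members, against 26.7% of all genes, and the 3'PAL deletion library was the highest for 26, against 27.6%. The members for which wild-type was not the lowest were Ifih1, Ifit1, Oasl1, Ifi44 and Xaf1, where the 3'RR deletion library was. The 7 members for which another library was the highest were Oasl2, Eif2ak2, Rsad2 and Bst2 (3'RR deletion), Ifih1 and Ifit1 (hs3b-hs4 deletion) and Oasl1 (wild-type). By kallisto the counts were 27 and 25, since the lowest stimulated library for Mx1 was then hs3b-hs4 deletion and the highest 3'RR deletion. Some marker lists of other cell types had the same extremes among the stimulated libraries, and others did not. The 8 erythroid markers summed to 152, 42.9, 235 and 10.4 CPM and the 8 T cell markers to 18.8, 17.1, 21.2 and 10.9 CPM in stimulated 3'RR deletion, hs3b-hs4 deletion, 3'PAL deletion and wild-type cells. Of the 8 T cell markers, 3 reached 1 CPM in any library. In the same order of genotypes the 13 monocyte and macrophage markers summed to 16.2, 9.56, 9.42 and 8.13 CPM, highest in 3'RR deletion cells. The 6 conventional dendritic cell markers summed to 51.5, 46.6, 51.4 and 53.3 CPM, highest in wild-type cells. The part of other cell types in the order of the members was not tested.

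In resting cells the order was another. In 3'RR deletion cells 4 members were higher (Oasl2, Eif2ak2, Isg15 and Rsad2) and 3 lower (Mx2, Ifi44 and Xaf1), against 3.02% and 1.37% of all genes. By kallisto Eif2ak2 fell short of the size rule here too, with 59.7 CPM in 3'RR deletion and 40.3 CPM in wild-type cells. In hs3b-hs4 deletion cells 0 were higher and 12 lower (1.48% and 1.34%), and in 3'PAL deletion cells 1 (Rsad2) was higher and 11 lower (1.48% and 1.29%). Ifit3, Oas1a, Oas2, Oasl1, Mx1, Bst2, Ifi44 and Rtp4 were lower in both. The median log2 ratio of the members was 0.06, -0.74 and -0.65 in 3'RR deletion, hs3b-hs4 deletion and 3'PAL deletion cells. Oas2 was 0.24 times as high in hs3b-hs4 deletion as in wild-type cells (0.185 to 0.309) and 0.17 times in 3'PAL deletion cells (0.121 to 0.223). The highest of the 4 resting libraries was 3'RR deletion for 18 members and wild-type for 15 (28.2% and 25.8% of all genes). The lowest was the hs3b-hs4 deletion library for 14 and the 3'PAL deletion library for 14 (23.4% and 21.7%). The resting wild-type library is the one that stood apart in AY036118, and the part of this in the resting ratios was not tested.

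**Figure D4:**
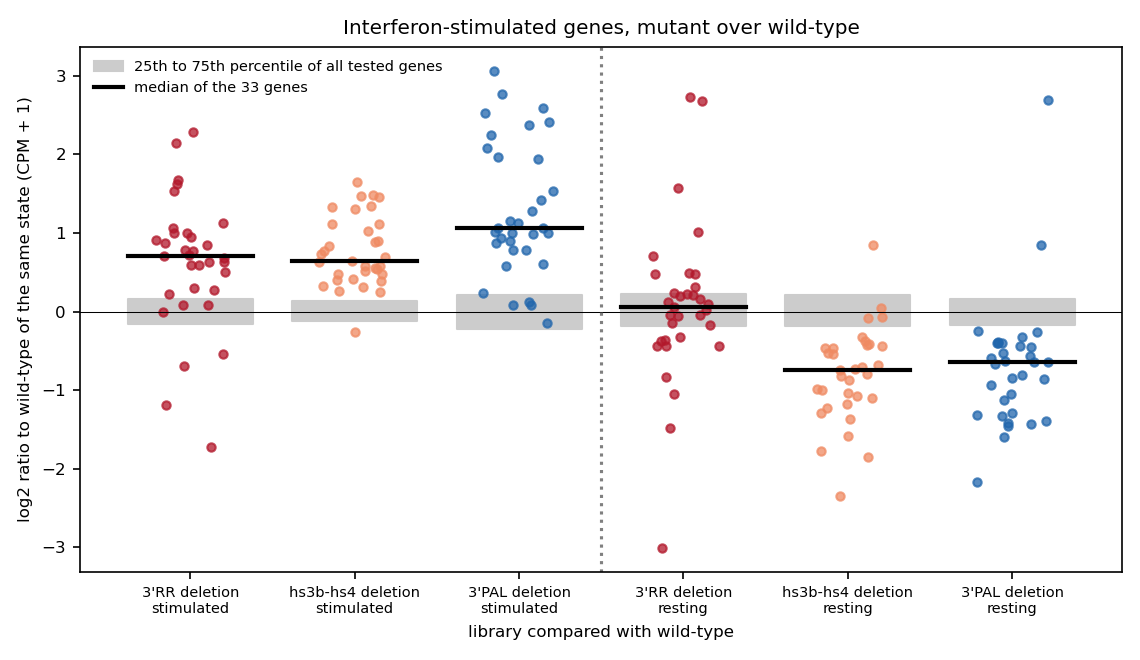
Log2 ratio of each mutant library over the wild-type library of the same state for the 33 genes (points), with their median (black line) and the 25th to 75th percentile of all 13791 genes tested (grey). The medians lie above the grey boxes in all 3 stimulated comparisons, at 0.65 to 1.06, and below them in resting hs3b-hs4 deletion and 3'PAL deletion cells, at -0.74 and -0.65.

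Tested over both states at once, in a fit that assumes the same change in each, few members differed between genotypes. The mean of the 3 mutants against wild-type gave 0 members (0.558% of all genes, edgeR) and 1, Rsad2, in DESeq2. At an unadjusted p under 0.05 it gave 1 member, against 1425 of all 13791 genes. The 3'RR deletion gave 1 member, Rsad2, which was higher (1.91% of all genes). The hs3b-hs4 deletion gave 0 (0.123% of all genes) and the 3'PAL deletion 0 (0.45% of all genes), and DESeq2 called 1, Rsad2, for each. At an unadjusted p under 0.05 each had 1 member, against 1157 and 1228 of all 13791 genes. For the hs3b-hs4 deletion and the 3'PAL deletion the median ratio of the members had opposite signs in the 2 states, and this fit averages over them.

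Rsad2 was higher in every mutant than in wild-type in both states. Its log2 fold change over both states was 2.73 ± 0.421 for the 3'RR deletion (adjusted p = 0.026), 1.32 ± 0.439 for the hs3b-hs4 deletion (adjusted p = 0.44) and 2.49 ± 0.418 for the 3'PAL deletion (adjusted p = 0.075, edgeR). The 3'RR deletion call was lost without any 1 of its own libraries or of the wild-type libraries (adjusted p from 0.078 to 0.30). In resting cells Rsad2 was 6.85 times as high in 3'RR deletion as in wild-type cells (6.21 to 7.57), 1.83 times in hs3b-hs4 deletion cells (1.63 to 2.04) and 6.68 times in 3'PAL deletion cells (6.05 to 7.395). Beside these, the 13 monocyte and macrophage markers summed to 1534, 662, 351 and 460 CPM and the 8 erythroid markers to 13399, 10721, 21662 and 3253 CPM in resting 3'RR deletion, hs3b-hs4 deletion, 3'PAL deletion and wild-type cells. The part of either in the Rsad2 levels was not tested. Rsad2 and its neighbour Cmpk2 lie on chromosome 12, which also carries the heavy chain locus, and Cmpk2 did not pass for any mutant. Whether this location has a part in the Rsad2 levels was not tested.

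For the 3'RR deletion, 3 further members had an unadjusted p under 0.05 and did not pass the adjustment. They were Oasl2 (log2 fold change 4.44 ± 1.16, adjusted p = 0.15), Ifi44 (-3.58 ± 1.16, adjusted p = 0.25) and Eif2ak2 (1.06 ± 0.406, adjusted p = 0.33, edgeR). With Rsad2 these made 4 of the 33 members, against 1810 of all 13791 genes, so the share of the members was near that of all genes. Ifi44 was 0.066 times as high in resting 3'RR deletion as in resting wild-type cells (0.0430 to 0.0974) and among stimulated cells 0.17 times (0.0796 to 0.344). Oasl2 was 16.4 times as high in resting 3'RR deletion as in resting wild-type cells (8.76 to 34.6), and among stimulated cells, where wild-type had 3 counts, 37.0 times (12.3 to 182).

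Genotypes that lack hs3b and hs4 (3'RR deletion and hs3b-hs4 deletion) were compared with those that keep them (3'PAL deletion and wild-type) within each state. In stimulated cells 0 members were called, in resting cells 0, and for the difference between the states 0, and 0% of all genes were called in each (edgeR, 4 groups of 2 libraries). At an unadjusted p under 0.05 there was 1 member in stimulated cells, Oasl2, and 0 in the other comparisons. Of all 13791 genes, 354 passed this limit in stimulated cells, 779 in resting cells and 256 for the difference. DESeq2 called 0 members in each comparison. The 2 genotypes of a group serve as its replicates here, and for many members they stood at opposite ends, as the 3'PAL deletion and wild-type libraries did in stimulated cells.

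The rest of the pathway was read from lists of genes. The 12 interferon genes, among them Ifnb1 and the listed interferon alphas, were below 1 CPM in every library, with a summed level of 0 to 0.18 CPM in stimulated and 0.04 to 0.39 CPM in resting cells. Of 11 receptor and signalling genes 1 rose and 9 fell on stimulation, where 34.9% of all genes rose and 35.9% fell. Ifnar1 fell by 1.01 on the log2 scale (SE 0.159, adjusted p = 0.00096), Jak2 by 1.62 (SE 0.0807, adjusted p = 8.5e-06) and the interferon gamma receptor chain Ifngr1 by 2.30 (SE 0.129, adjusted p = 1.2e-05, edgeR). Of 21 genes of sensing and induction 4 rose and 9 fell, and the number that fell is close to the share of all genes. Ticam2, an adaptor of Tlr4, rose by 1.77 ± 0.197 (adjusted p = 0.00017), and the transcription factors Irf1 and Irf5 fell by 1.62 (SE 0.113) and 0.91 (SE 0.0842). Of 13 tested genes of feedback 1 rose and 9 fell, with the NF-kB inhibitor Tnfaip3 at -2.22 ± 0.172. The median log2 fold change was -0.22 for sensing and induction, -0.88 for receptors and signalling and -0.61 for feedback, against -0.03 for all genes.

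Further interferon targets outside the 33 were read in the same way. Of 57 tested type I targets 11 rose and 17 fell on stimulation (34.9% and 35.9% of all genes), with the scramblase Plscr1 at 1.94 ± 0.132 and the Isg15-conjugating enzyme Ube2l6 at -3.05 ± 0.213. Their median log2 ratio of stimulated over resting cells was -0.28, -0.06, 0.32 and -0.60 in 3'RR deletion, hs3b-hs4 deletion, 3'PAL deletion and wild-type cells, the highest again in 3'PAL deletion cells and the lowest in wild-type. In stimulated cells their median ratio to wild-type was 0.42, 0.36 and 0.75 in 3'RR deletion, hs3b-hs4 deletion and 3'PAL deletion cells, with 8, 3 and 14 genes higher by the size rule and 0 lower in each. In resting cells it was 0.10, -0.19 and -0.29, lowest in 3'PAL deletion cells, whereas the members were lowest in hs3b-hs4 deletion cells. Of 14 tested type II interferon targets 6 rose and 4 fell, with Ido1, which degrades tryptophan, at 4.49 ± 0.396 and the chemokine Cxcl9 at -7.92 ± 0.534.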

How the data were processed

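Splenic B cell RNA was depleted of ribosomal RNA and sequenced as stranded paired-end libraries, per the labels' protocols. The gene counts used here were deposited by the authors as raw counts per symbol. Per the submitters' processing notes, tools included STAR 2.4.0a, featureCounts of Subread 1.4.6-p1 and kallisto 0.42.3, with GRCm38 (mm10). Kallisto estimated counts per transcript were deposited by the authors as well; they were summed per gene, rounded and used as an alternative. Not given in the sources used here are the version of the annotation, the strand setting and the counting unit (read or fragment). The deposited TPM values were not used.

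The 1 entry without a gene name (0.0062 to 0.034% of counts) and 92 spike-in entries (0 counts) were left out. TMM scaling (trimmed mean of M values; factors 0.943 to 1.05) was applied to the counts, which were tested with edgeR 4.0.16 in R 4.3.3 after filterByExpr by state, in a fit with genotype and state (3 degrees of freedom left, coefficient of variation between libraries 15.8%) and a fit with 4 groups (4 degrees of freedom left, 24.6%). P-values were adjusted by Benjamini-Hochberg over all genes tested (threshold 0.05). The standard error is the log2 fold change divided by the square root of F. Alternatives were DESeq2 1.42.0, other size factors, no filter, kallisto counts, no genotype term, another pseudocount (0.5 CPM) or level minimum (10 CPM), and leaving out libraries. Intervals of ratios of 2 libraries are exact conditional binomial 95% intervals from SciPy 1.17.1 and, like the limit of 3 counts, cover counting error only. Scripts were tested on simulated counts.

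The members, lists and comparisons were chosen with earlier results of these data known. Values in all libraries are given for called members and for the 3 members of highest and lowest level; Irf7, Ifit3, Mx2 and Xaf1 were added after their values were seen. From each list at most 5 genes with the lowest adjusted p were to be named; Ifnar1 and Ticam2 were added after their values were seen. Promoter sequences are from RefSeq. Member coordinates and lengths are those deposited by the authors with the gene counts (GRCm38).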

Additional observations from a re-analysis of the deposited data

Results flagged for a closer look

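In each state the 4 libraries, 1 per genotype, were examined for a library far from the other 3, for each of the 33 genes (66 groups of 4). Chance flags about 1 in 20 such groups, and 2 were found; the libraries differ in genotype and are not repeats of 1 condition. Oasl2 in resting 3'RR deletion cells was at 8.90 CPM, against 0.117 to 0.543 CPM in the other resting libraries (gap over range 0.951). Mx2 in resting wild-type cells was at 15.8 CPM, against 7.07 to 7.80 CPM in the resting mutants (gap over range 0.916). The third result is the 25 members that were higher after stimulation in 3'PAL deletion cells and lower after stimulation in wild-type cells. This difference between genotypes was not tested, since each genotype has 1 library per state.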

How the results depend on the processing

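The number of members called on stimulation (10) was 11 with DESeq2's size factors, 9 with library size alone, 13 without the filter, 12 in DESeq2, 13 with kallisto counts, 10 without the genotype term, 8 to 15 without 1 library and 7 to 14 without both libraries of a genotype, the last chosen after seeing the data. Of all genes tested, 9761 were called in the main fit, 8812 to 9700 without 1 library and 8769 to 9606 without both of a genotype. Dhx58 lost its call with library size alone (adjusted p = 0.072) and Bst2 without the genotype term (0.063). For all mutants over wild-type (0 members), 1 was called without the filter, 1 in DESeq2 and 0 to 1 without 1 library. For the 3'RR deletion (1), 3 were called without the filter (Rsad2, Oasl2, Ifi44), 2 in DESeq2 (Rsad2, Oasl2) and 0 to 2 without 1 library. For the hs3b-hs4 deletion (0), DESeq2 called 1. For the 3'PAL deletion (0), 1 was called without the filter, 1 in DESeq2 and 0 to 1 without 1 library. With a minimum of 10 CPM, 5 members in place of 8 passed the size rule in stimulated 3'RR deletion cells and 3 in place of 7 in stimulated hs3b-hs4 deletion cells. The 25 members lower after stimulation in wild-type and higher in 3'PAL deletion cells were 26 with library size alone, with Samhd1 added, and 25 with kallisto counts, with Mx1 lost and Samhd1 added, both tried after seeing the data. The median log2 fold change of the members on stimulation (0.03) was -0.00048 with library size alone and -0.26 to 0.66 without 1 library. The cause of these shifts was not tested. The genotype term pairs the 2 libraries of a genotype in the stimulation test; whether these share animals is not stated. Counts limit the lowest members, with 3 to 253 per library for Oasl2 and 10 to 591 for Ifi44.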

Other observations

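Ifi27l2a and Isg20, interferon targets outside the 33 that were taken after their values were seen had their lowest stimulated level in wild-type and their highest in 3'PAL deletion cells. Ifi27l2a, an interferon-induced gene, had 219, 184, 308 and 60.8 CPM in stimulated 3'RR deletion, hs3b-hs4 deletion, 3'PAL deletion and wild-type cells and 51.8, 31.9, 32.4 and 61.7 CPM in resting cells. It rose on stimulation (log2 fold change 2.00 ± 0.497, adjusted p = 0.0085, edgeR), while its 2 wild-type libraries were nearly equal. Isg20, an interferon-induced exonuclease, had 21.8, 16.0, 27.8 and 9.92 CPM in stimulated and 21.9, 11.9, 26.1 and 9.23 CPM in resting cells of the same order of genotypes. Every mutant library lay above both wild-type libraries. Isg20 was the 1 gene of the 57 further targets that passed for the mutants against wild-type (log2 fold change 1.08 ± 0.131, adjusted p = 0.024, edgeR). Of all genes tested 0.558% passed in this comparison.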
